A study of Homo sapiens with 12 samples.

Results

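HCC38, an established basal-like breast cancer cell line, is described here on its own after knock-down of the long intergenic non-coding RNA LINC01956, called RP19 in the labels, and then against the other lines of the series. The 4 HCC38 libraries were taken by cell line and treatment from a series of 12, which also holds 4 libraries each of the basal-like lines MDA-MB-468 and SUM149PT. The knock-down (KD) libraries, 2 in HCC38, came from cells transfected at seeding with LNA1 and LNA2 together, at a final 50 nM. LNAs are locked nucleic acid antisense oligonucleotides that direct cleavage of a complementary RNA. The 2 reference libraries came from HCC38 cells that received an LNA without a target (LNA NS) in the same way. In both groups the medium was changed after 6 h and the cells were collected after 24 h, and RNA was selected for poly-A tails and made into strand-specific libraries. Because both LNAs were given together, what each did alone cannot be told apart, and each line stands for itself. Nothing in the labels says whether replicate libraries were grown as separate cultures, so every p-value here rests on the spread between these libraries, which may be technical.

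A long intergenic RNA is transcribed from its own gene, is not translated, and can act on chromatin or on proteins that it binds. The study asked whether this nuclear lncRNA supports the E2F program, in which E2F transcription factors switch on DNA replication genes before S phase. The later mitotic genes are switched on by other factors that bind a short promoter element, the cell cycle genes homology region (CHR). HCC38 is known as a basal-like line with epithelial and mesenchymal traits and no hormone receptors.

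Gene counts were 51819824 and 35415688 in the KD libraries of HCC38 and 45544488 and 48229126 in the LNA NS libraries, within a range of 32187835 to 56191152 over all 12. Of 63677 genes in the files, 21325 had enough counts to be tested. Values are given as CPM, counts scaled to a common library size after TMM normalization, and a log2 fold change is KD over LNA NS in edgeR's quasi-likelihood fit of all 12 libraries. A gene is said to have risen or fallen at a Benjamini-Hochberg adjusted p under 0.1 in that fit, and to be called where the change was also over 2-fold. The labelled cell type was checked by its markers, per kilobase of exon. EPCAM ran from 170 to 203 CPM per kb in the HCC38 libraries and VIM from 89.7 to 110, while ESR1 and PGR did not pass 0.0165. Other markers of the same types were mixed. The mesenchymal FN1 ran from 27.2 to 51.9 CPM per kb, CDH2 from 2.14 to 3.38 and ZEB1 from 0.293 to 0.448. Among luminal and receptor markers, ERBB2 ran from 15.5 to 18.7, GATA3 from 11.7 to 14.0 and FOXA1 from 0.351 to 0.933. The basal EN1 ran from 19.3 to 30.2, against 3.27 in MDA-MB-468 LNA NS and 8.15 in SUM149PT LNA NS cells. KRT5 was low, at 11.2 to 15.2 CPM per kb, against 598 in MDA-MB-468 LNA NS and 454 in SUM149PT LNA NS cells. The immune markers PTPRC, CD3D and LYZ and the erythroid HBB were at or near 0, and CD14 ran from 5.04 to 5.78 CPM per kb. As in any bulk sample, fewer cells of a type and less RNA per cell cannot be told apart.

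KD replicate 2 stood apart before any test. Structural RNAs that lack a stable poly-A tail (ribosomal, 7SL, spliceosomal, small nucleolar and other small RNAs) summed to 1352 and 2690 CPM in the KD libraries, against 253 and 445 CPM in the LNA NS libraries. Reads outside any gene took 8.34% and 13.0% of all counts with KD, against 5.28% and 6.05% with LNA NS. Unaligned reads took 3.00% and 6.11% with KD, against 1.88% and 1.87% with LNA NS. Each measure was higher in both KD libraries than in both LNA NS libraries, and highest in KD replicate 2. The 8 libraries of the other lines ran from 329 to 3813 CPM of structural RNA, so that the HCC38 LNA NS library of replicate 1 was the lowest of all 12.

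**Figure D1:**
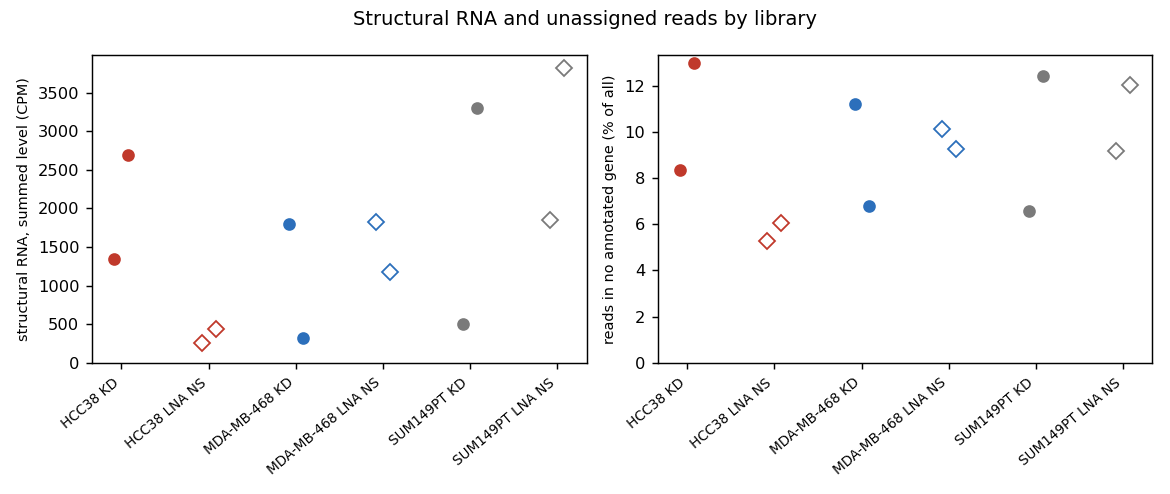
Summed structural RNA in CPM (left) and reads in no annotated gene as a percentage of all counts (right), with a point for each of the 12 libraries, filled for KD and open for LNA NS, KD left of LNA NS in each line. The HCC38 KD points lie above the HCC38 LNA NS points in both panels, at 1352 and 2690 against 253 and 445 CPM of structural RNA.

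The targeted lncRNA (chr2:119524541-119592686 of GRCh37, minus strand) had 1.48 and 2.05 CPM in the KD libraries, against 14.6 and 15.1 CPM in the LNA NS libraries. Both KD libraries were far below both LNA NS libraries, and the lncRNA fell by 3.09 on the log2 scale (standard error 0.195, edgeR adjusted p = 3.5e-08). The fall was smaller than in SUM149PT, with a difference of 1.32 in log2 fold change (edgeR adjusted p = 0.0146), while the difference from MDA-MB-468 was 1.66 (edgeR adjusted p = 0.125). Among 11 tested genes around the lncRNA, 2 rose (18.2%, against 15.5% of all genes) and 4 fell (36.4%, against 18.4%). Fewer fell without KD replicate 1 or without LNA NS replicate 1. EN1, a homeobox transcription factor whose gene lies beside that of the lncRNA, had 75.8 and 86.3 CPM in the KD libraries, against 55.04 and 61.6 CPM in the LNA NS libraries. Its groups did not overlap and it rose by less than 2-fold, with a log2 fold change of 0.47 (standard error 0.137, edgeR adjusted p = 0.0174). That rise was lost without KD replicate 2 or LNA NS replicate 1. C1QL2, a secreted complement-related protein, had 6 and 7 counts in the KD libraries and 0 in each LNA NS library. CCDC93, an endosomal sorting protein, had 52.3 and 42.6 CPM in the KD libraries, against 91.2 and 104 CPM in the LNA NS libraries. PTPN4, a tyrosine phosphatase, had 14.2 and 12.6 CPM in the KD libraries, against 20.8 and 20.9 CPM in the LNA NS libraries. In both genes the KD libraries lay below the LNA NS libraries, and they fell by 1.04 and 0.63 on the log2 scale.

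Across all genes, 1997 were called in HCC38 (9.36% of those tested), 1057 higher (4.96%) and 940 lower (4.41%) with KD. At any fold, 3316 rose (15.5%) and 3927 fell (18.4%), and the median log2 fold change of all tested genes was 0.01. Upper quartile scaling moved that median to 0.13 and split the calls into 1405 higher and 712 lower. Protein-coding genes made up 651 of the rises and 723 of the falls. The KD and LNA NS libraries did not overlap in 1049 of the 1057 rises and in all 940 falls, against 61.5% of all genes tested. With both HCC38 groups under 1 CPM, 658 of the called genes were weakly expressed.

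Among the largest falls of expressed genes were ZDHHC11, VAC14 and USP40. ZDHHC11, a palmitoyltransferase with a close paralog, had 3.22 and 3.37 CPM in the KD libraries, against 45.6 and 54.7 CPM in the LNA NS libraries. VAC14, the scaffold of the kinase that makes phosphatidylinositol 3,5-bisphosphate, had 12.9 and 12.8 CPM in the KD libraries, against 98.6 and 113 CPM in the LNA NS libraries. USP40, a deubiquitinase, had 12.3 and 12.1 CPM in the KD libraries, against 83.8 and 85.6 CPM in the LNA NS libraries. The KD libraries of all 3 were several-fold below the LNA NS libraries, with log2 fold changes of −3.93, −3.04 and −2.80. None of the 3 passed the test of a difference from the response in either other line (edgeR adjusted p of 0.376 to 1), which does not show that the responses were equal. Among abundant genes, ACTN1, an actin cross-linker, had 384 and 358 CPM in the KD libraries, against 762 and 923 CPM in the LNA NS libraries. PRMT1, the main arginine methyltransferase, had 159.7 and 175 CPM in the KD libraries, against 518 and 498 CPM in the LNA NS libraries. Groups were fully separated in both genes too.

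Of the rises, PYGM, muscle glycogen phosphorylase, had 39.98 and 43.5 CPM in the KD libraries, against 3.98 and 4.75 CPM in the LNA NS libraries. RYR2, a calcium release channel known from heart muscle, had 8.14 and 7.35 CPM in the KD libraries, against 0.5899 and 0.696 CPM in the LNA NS libraries. FAM83E had 4.12 and 5.305 CPM in the KD libraries, against 0.2403 and 0.225 CPM in the LNA NS libraries. The KD libraries of these genes exceeded the LNA NS libraries by far, and each rise differed from both other lines. PYGM rose less in HCC38 than elsewhere (log2 fold change 3.26, against 5.19 in MDA-MB-468 and 5.04 in SUM149PT). RYR2 rose more (3.58, against 2.65 in MDA-MB-468 and 1.71 in SUM149PT), and so did FAM83E (4.32, against 1.01 in MDA-MB-468 and 3.07 in SUM149PT). The edgeR adjusted p of these 6 differences ran from 3.1e-05 to 0.098, and without 1 library both differences passed in all 12 fits for PYGM, 8 for RYR2 and 1 for FAM83E. Among abundant genes that rose, DSC3, a desmosomal cadherin, had 482 and 394 CPM in the KD libraries, against 206 and 230.4 CPM in the LNA NS libraries, without overlap.

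**Figure D2:**
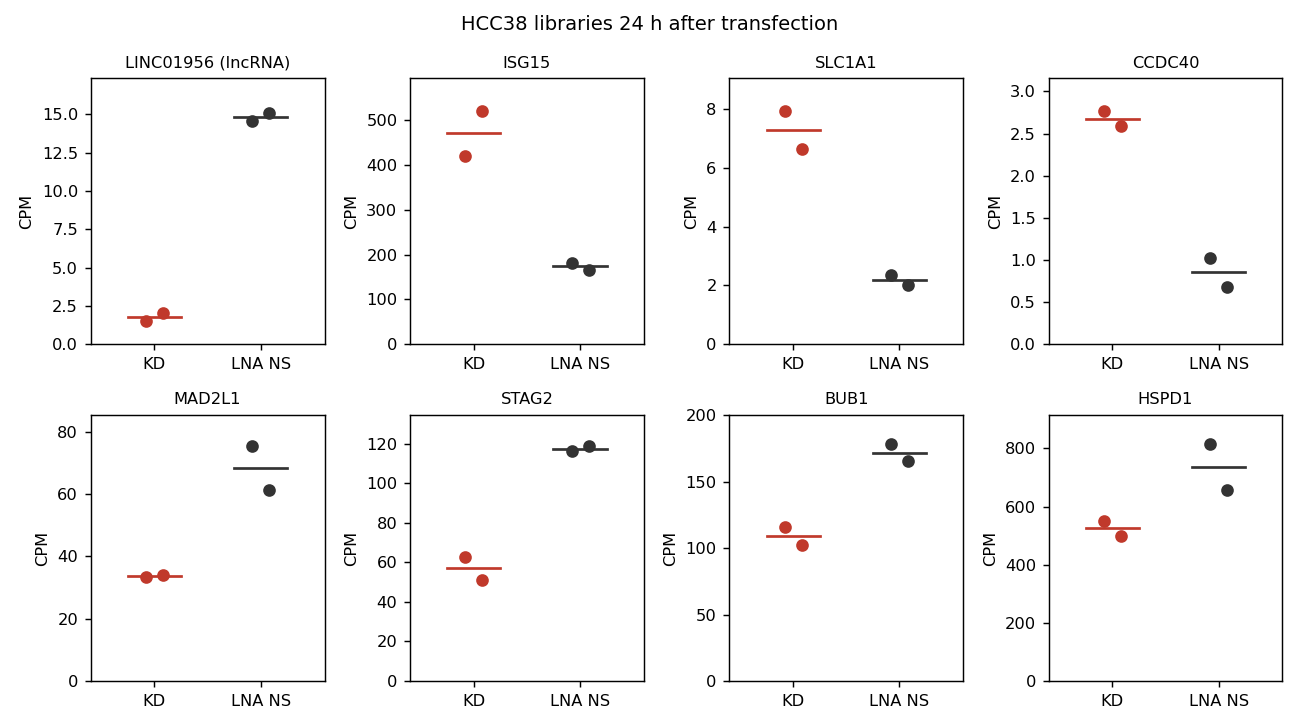
CPM of each HCC38 library for the lncRNA and genes named in the text, with the 2 KD libraries left of the 2 LNA NS libraries and the line marking the mean of a group. Each panel has its own axis from 0, and in ISG15 the KD points of 421 and 522 CPM lie above the LNA NS points of 182 and 166 CPM.

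Many of these calls were also made in the other lines. Of the 1997 called genes, 1114 were called in the same direction in MDA-MB-468 (55.8% of the HCC38 calls and 25.9% of the 4306 MDA-MB-468 calls, which are 20.2% of genes tested). In SUM149PT it was 785 (39.3% of the HCC38 calls and 34.7% of the 2265 SUM149PT calls, which are 10.6%). The lines share no libraries. Another 495 genes called in HCC38 passed the test in neither other line, but in only 74 of them did the HCC38 response differ from both other lines, so that a missing call elsewhere is not a difference by itself. The difference of responses passed the test upward for 13.8% of genes and downward for 13% against MDA-MB-468, and for 6.64% and 9.55% against SUM149PT.

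A gene was therefore counted as moving in HCC38 only where it was called there, where its response differed from both other lines with the same sign, where it changed by less than 1.5-fold or in the opposite direction in each of them, and where at least 1 group of every line reached 1 CPM. These limits gave 41 rises (0.192% of genes tested) and 20 falls (0.0938%). The responses that chose these genes are given as a description. Of the rises, 19 were protein-coding, with log2 fold changes of 1.06 to 2.01, and 22 were not, with 1.18 to 4.31. Of the falls, 19 were protein-coding, with −1.32 to −1.003, and the other was the pseudogene SUZ12P1. Leaving out 1 library at a time gave 17 to 54 rises and 10 to 47 falls, with the fewest of both without SUM149PT KD replicate 1, and 10 rises, 8 of them protein-coding, and 3 falls were kept in all 12 such fits. A fall in HCC38 was often a stronger form of a fall elsewhere, since 16 of the 20 genes also fell by less in at least 1 other line.

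Among the protein-coding rises, 2 were of the interferon response. ISG15, a ubiquitin-like protein that interferon induces (chr1:936518-949920 of GRCh37), had 421 and 522 CPM in the KD libraries, against 182 and 166 CPM in the LNA NS libraries. IRF7, the transcription factor that amplifies interferon production, had 1.76 and 2.58 CPM in the KD libraries, against 0.939 and 1.02 CPM in the LNA NS libraries. In both genes the KD libraries lay above the LNA NS libraries. The log2 fold change of ISG15 was 1.44 in HCC38 (standard error 0.113), against 0.29 in MDA-MB-468 and 0.28 in SUM149PT, and that of IRF7 was 1.11 (standard error 0.218), against −0.02 in MDA-MB-468 and 0.31 in SUM149PT. ISG15 kept to these limits in all 12 fits without 1 library, and IRF7 in 7.

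Other coding rises came from genes of diverse functions. The largest, at 2.01 on the log2 scale, was that of a replication-dependent histone gene, of a class whose messages mostly lack poly-A tails. SERPINF2, which encodes the plasmin inhibitor alpha-2-antiplasmin, had 0.988 and 1.02 CPM in the KD libraries, against 0.3496 and 0.164 CPM in the LNA NS libraries. SLC1A1, a glutamate transporter of the plasma membrane (chr9:4490468-4587469 of GRCh37), had 7.92 and 6.65 CPM in the KD libraries, against 2.34 and 2.03 CPM in the LNA NS libraries. CCDC40, which helps assemble the dynein arms of motile cilia, had 2.76 and 2.58 CPM in the KD libraries, against 1.03 and 0.676 CPM in the LNA NS libraries. The KD values were 3.35-fold the LNA NS values in SLC1A1 and clear of them in the other genes. DYRK1B, a kinase tied to cell cycle exit, had 15.9 and 17.3 CPM in the KD libraries, against 7.38 and 7.64 CPM in the LNA NS libraries. HRK, a BH3-only activator of apoptosis, had 10.1 and 10.5 CPM in the KD libraries, against 4.39 and 4.95 CPM in the LNA NS libraries. BAG1, a co-chaperone of HSP70, had 80.95 and 89.9 CPM in the KD libraries, against 41.5 and 40.5 CPM in the LNA NS libraries. Each of these genes had 2 KD values near each other and above both LNA NS values, and all but BAG1, at 11, kept to the limits in all 12 fits without 1 library. HES6, a basic helix-loop-helix protein that works against HES1, had 13.6 and 16.3 CPM in the KD libraries, against 7.04 and 6.33 CPM in the LNA NS libraries. UBXN11, a UBX domain protein, had 35.6 and 40.5 CPM in the KD libraries, against 18.2 and 18.2 CPM in the LNA NS libraries. KRT17, a basal keratin with pseudogene copies that may take some of its reads, had 1.46 and 1.05 CPM in the KD libraries, against 0.5899 and 0.512 CPM in the LNA NS libraries. None of the groups overlapped in these genes. KRT17 was at its lowest level in HCC38, since per kilobase of exon its LNA NS libraries had 0.197 and 0.171 CPM per kb in HCC38, against 55.5 in MDA-MB-468 LNA NS and 136 in SUM149PT LNA NS cells. In the other lines these 9 genes had log2 fold changes from −0.88 to 0.34.

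**Figure D3:**
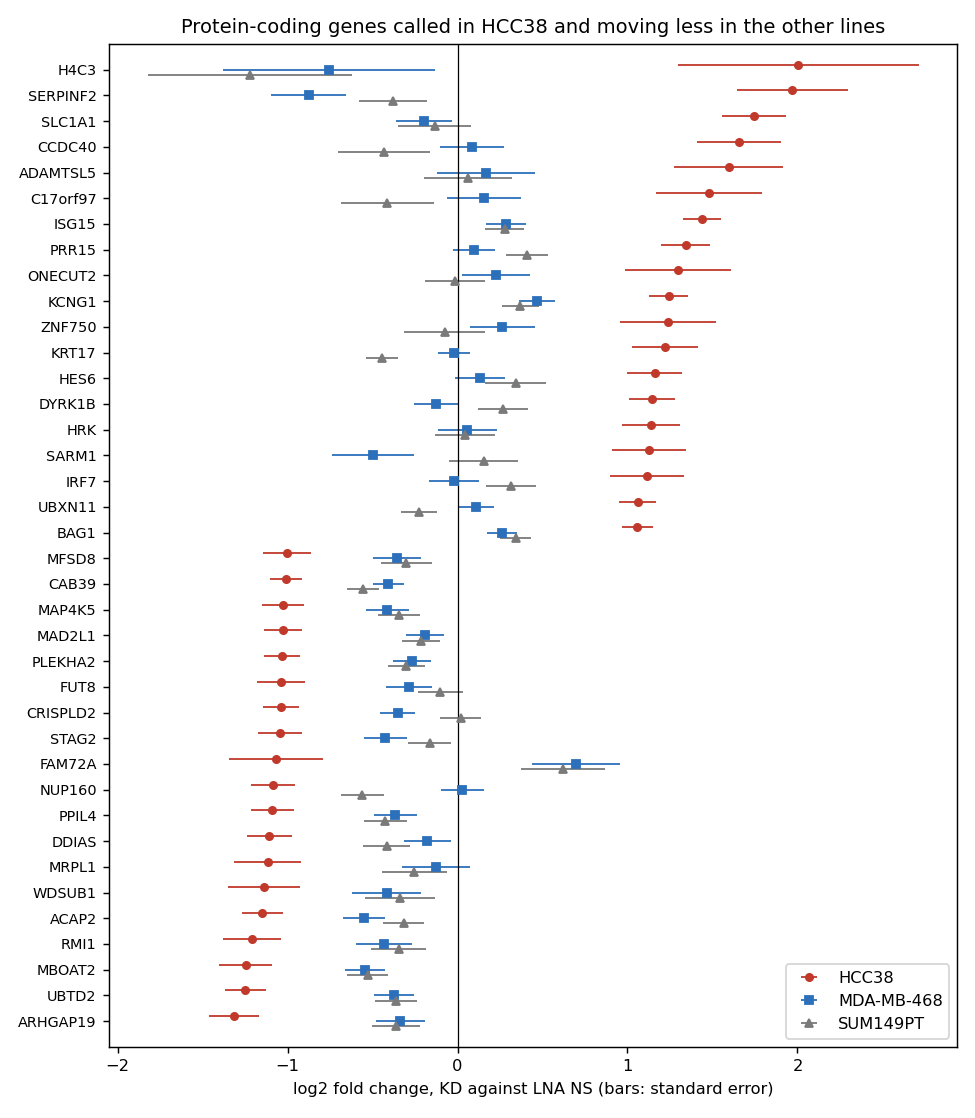
Log2 fold change with KD against LNA NS for the 38 protein-coding genes that moved in HCC38 only, in HCC38, MDA-MB-468 and SUM149PT, with the standard error of the fit as bars. HCC38 points lie at 1.06 to 2.01 among the rises and at −1.32 to −1.003 among the falls, outside the points of the other lines, as the choice of genes requires.

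Among the 20 falls were 3 genes of chromosome segregation or cell division. MAD2L1, the spindle checkpoint protein that holds back anaphase (chr4:120976778-120988013 of GRCh37), had 33.2 and 33.8 CPM in the KD libraries, against 75.4 and 61.2 CPM in the LNA NS libraries. STAG2, a subunit of cohesin, had 62.8 and 51.1 CPM in the KD libraries, against 116 and 119 CPM in the LNA NS libraries. ARHGAP19, a GTPase-activating protein that acts in mitosis (chr10:98981930-99052430 of GRCh37), had 6.35 and 5.36 CPM in the KD libraries, against 15.4 and 13.9 CPM in the LNA NS libraries. Both KD libraries were below both LNA NS libraries in each. ARHGAP19 had the largest of these falls, −1.32 in HCC38 on the log2 scale, against −0.34 in MDA-MB-468 and −0.36 in SUM149PT. Genome maintenance was represented by RMI1, a subunit of the complex that resolves crossed DNA strands, with 5.73 and 5.95 CPM in the KD libraries, against 13.9 and 13.02 CPM in the LNA NS libraries, and by DDIAS, a suppressor of apoptosis after DNA damage, with 37.5 and 33.8 CPM in the KD libraries, against 82.3 and 71.4 CPM in the LNA NS libraries. FAM72A, a small protein that binds the uracil glycosylase UNG, had 1.04 and 0.727 CPM in the KD libraries, against 2.29 and 1.49 CPM in the LNA NS libraries. FAM72A belongs to a family of near-identical copies, so its counts are uncertain, and its call was lost without LNA NS replicate 1. It was also the only one of the 20 that passed the test as a rise in both other lines, where its log2 fold change was 0.69 (MDA-MB-468) and 0.62 (SUM149PT).

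The other named falls were of transport, signaling and secretion. NUP160, a scaffold protein of the nuclear pore, had 79.6 and 61.7 CPM in the KD libraries, against 148 and 152 CPM in the LNA NS libraries. FUT8, the enzyme that adds core fucose to N-glycans, had 6.29 and 6.46 CPM in the KD libraries, against 13.8 and 12.4 CPM in the LNA NS libraries. CAB39, the partner that activates the kinase LKB1, had 77.6 and 70.6 CPM in the KD libraries, against 155 and 143 CPM in the LNA NS libraries. Groups did not overlap in any of them. CRISPLD2, a secreted protein, had 50.3 and 48.5 CPM in the KD libraries, against 93.2 and 109.8 CPM in the LNA NS libraries. ACAP2, a GTPase-activating protein for ARF6, had 20.3 and 17.5 CPM in the KD libraries, against 41.6 and 42.5 CPM in the LNA NS libraries. In these 5 genes the log2 fold change ran from −1.15 to −1.01 in HCC38, and NUP160 kept to the limits in only 3 of the 12 fits without 1 library, against 8 to 11 for the others. The protein-coding falls had an annotated span of 72679 bp at the median, against 13403 bp for the protein-coding rises. It was 21770 bp for all genes tested, coding or not, and 116398 bp for all called falls in HCC38.

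The 22 rises not known as protein-coding, 3 of them without a match in the annotation, differed from the coding ones in how they rested on 1 library. KD replicate 2 was the higher KD library in 22 of 22, with a median ratio of 2.16 to KD replicate 1, against 13 of 19 and 1.09 in the coding rises. RN7SL2, a 7SL RNA of the signal recognition particle, had 358 and 779 CPM in the KD libraries, against 58.1 and 101 CPM in the LNA NS libraries. RNA5S9, a 5S ribosomal RNA, had 11.2 and 36.97 CPM in the KD libraries, against 1.27 and 4.52 CPM in the LNA NS libraries. SNORD3A, the U3 small nucleolar RNA, had 18.4 and 29.5 CPM in the KD libraries, against 2.29 and 5.1999 CPM in the LNA NS libraries. The KD libraries were above the LNA NS libraries in each, with KD replicate 2 on top. The spread between replicates was wide, with standard errors of 0.818, 0.913 and 0.863 on log2 fold changes of 2.84, 3.03 and 2.66. RNA5S9 and SNORD3A lost their call without KD replicate 2 or without LNA NS replicate 1, RN7SL2 lost it without LNA NS replicate 1, and all 3 lost it in a robust fit. RN7SL3 (5.27 and 13.5 CPM with KD, against 0.655 and 1.39 CPM with LNA NS) and SCARNA7 (1.501 and 3.31 CPM with KD, against 0.284 and 0.266 CPM with LNA NS) kept it without any 1 library, and RN7SL3 lost it in the robust fit. RNA5-8SP2 (36.4 and 101 CPM with KD, against 6.79 and 13.2 CPM with LNA NS) lost it without KD replicate 2, without LNA NS replicate 1 and in the robust fit. These RNAs come in many near-identical copies, so counts of single copies are uncertain. Without KD replicate 2, 2 of these 22 rises, 12 of the 19 coding rises and 9 of the 20 falls kept to the limits.

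Of the HCC38-only rises not known as protein-coding, 9 were structural RNAs. For the whole class only calls and medians are given, which do not show how far it rested on 1 library. Of 221 structural RNAs tested, 62 were called higher and 3 lower in HCC38, with a median log2 fold change of 0.85, against 0.35 in MDA-MB-468, 0.22 in SUM149PT and 0.01 over all genes in HCC38. Small nucleolar RNAs made up 108 of them, of which 38 (35.2%, against 4.96% of all genes) were called higher and 1 lower. The structural RNA sums and the shares of reads outside genes and of unaligned reads moved with the treatment in HCC38, and their part in these rises was not tested.

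Mitotic genes set HCC38 apart as a group. Of 60 genes of the G2 and M phases, 36 fell in HCC38 (60.0%, against 18.4% of all genes), 2 rose and 22 passed in neither direction, with a median log2 fold change of −0.31. In MDA-MB-468 39 rose (against 24.9% of all genes there) and 9 fell (against 25.7%), with a median of 0.43. In SUM149PT 22 rose (against 20% of all genes there) and 9 fell (against 18%), with a median of 0.14. The HCC38 response was lower than in both other lines for 35 of the 60, against 5.01% of all genes. Of the 36 falls, 11 were rises in both other lines and 28 were falls in neither. The falls were moderate, with only MAD2L1 changing by more than 2-fold. Over the alternatives in processing the HCC38 median of the list was −0.18 at its highest. Without KD replicate 2, 21 fell and 18 were lower than in both, and without LNA NS replicate 1 the counts were 24 and 17. Without SUM149PT KD replicate 1, 15 were lower than in both, and without SUM149PT LNA NS replicate 2, 19.

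The mitotic genes shown here are single members of that list, and CCNB1, CCNB2, CDK1, NDC80 and SPC25 were named after their values were seen, for falling. BUB1, a kinase of the spindle checkpoint, had 116 and 102 CPM in the KD libraries, against 178 and 165 CPM in the LNA NS libraries. CCNB2, a cyclin that activates CDK1 for entry into mitosis, had 62.8 and 63.3 CPM in the KD libraries, against 111 and 94.3 CPM in the LNA NS libraries. NDC80, which ties kinetochores to microtubules, had 59.1 and 54.04 CPM in the KD libraries, against 106 and 80.4 CPM in the LNA NS libraries. The KD libraries of all 3 were below the LNA NS libraries. SPC25, of the same kinetochore complex as NDC80, had 16.1 and 15.9 CPM in the KD libraries, against 35.1 and 23.6 CPM in the LNA NS libraries, and its response did not pass the test of a difference from MDA-MB-468 (edgeR adjusted p = 0.118) or SUM149PT (edgeR adjusted p = 0.129). BUB1 fell by 0.65 on the log2 scale in HCC38 and had 0.30 in MDA-MB-468 and 0.26 in SUM149PT, with edgeR adjusted p of 0.00034 and 0.00168 for the differences. CDK1, the kinase of mitotic entry, had 212 and 214 CPM in the KD libraries, against 324 and 253 CPM in the LNA NS libraries, a fall that was lost without LNA NS replicate 1. CCNB1, the main cyclin of CDK1, had 179 and 173 CPM in the KD libraries, against 234 and 202 CPM in the LNA NS libraries, a fall that was lost without KD replicate 2, without LNA NS replicate 1 or with upper quartile scaling. Neither gene had overlapping groups. In log2 fold change the HCC38 response was below that of MDA-MB-468 by 0.83 for CDK1 and by 1.07 for CCNB1, and below that of SUM149PT by 0.81 and 0.82 (edgeR adjusted p from 0.00013 to 0.0128). The 2 rises on the list were those of NEK2, a centrosomal kinase, with a log2 fold change of 0.31 (edgeR adjusted p = 0.0261), and CDC25B, a phosphatase that activates CDK1, with 0.23 (edgeR adjusted p = 0.0438). The responses of BUB1, CCNB1, CCNB2 and CDK1 were lower than in both other lines in all 12 fits without 1 library, and that of NDC80 in 6.

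Genes of the E2F program fell in HCC38 and in the other lines. Of 67 G1/S and replication genes, 41 fell (61.2%, against 18.4% of all genes), 2 rose and 24 did not pass, with a median log2 fold change of −0.31, against −0.26 in MDA-MB-468 (35 falls) and −0.20 in SUM149PT (33 falls). The HCC38 response was lower than in both other lines for 12 of the 67 (against 5.01% of all genes), and for 1 to 4 without KD replicate 2, LNA NS replicate 1, either LNA NS library of MDA-MB-468, SUM149PT KD replicate 1 or SUM149PT LNA NS replicate 2. Leaving out 1 library gave 27 to 39 falls, the fewest without KD replicate 2. POLA1, the catalytic subunit of DNA polymerase alpha, had 15.4 and 13.8 CPM in the KD libraries, against 37.6 and 36.8 CPM in the LNA NS libraries. POLE, the catalytic subunit of the leading strand polymerase epsilon, had 62.6 and 59.1 CPM in the KD libraries, against 129.97 and 175 CPM in the LNA NS libraries. PRIM2, a subunit of primase, had 10.2 and 11.8 CPM in the KD libraries, against 27.03 and 23.7 CPM in the LNA NS libraries. The KD libraries of the 3 genes lay far below the LNA NS libraries, and POLE and PRIM2 fell less in HCC38 than in MDA-MB-468, by 0.77 and 1.31 in log2 fold change (edgeR adjusted p = 0.00895 and 0.0003). Of the 8 E2F factors, only E2F3 passed the test, with 52.8 and 46.3 CPM in the KD libraries, against 73.4 and 78.9 CPM in the LNA NS libraries and a log2 fold change of −0.62 (standard error 0.104, edgeR adjusted p = 0.00037). Its fall exceeded that of MDA-MB-468 by 0.50 (edgeR adjusted p = 0.0258) and that of SUM149PT by 0.43 (edgeR adjusted p = 0.0796), but passing both tests held in 2 of the 12 fits without 1 library, those without HCC38 KD replicate 1 or SUM149PT LNA NS replicate 1. Among 62 DNA repair and checkpoint genes, 29 fell (46.8%, against 18.4% of all genes, with 19 falls without LNA NS replicate 1) and 1 rose, with a median of −0.25, against −0.09 in MDA-MB-468 and −0.03 in SUM149PT.

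Promoter sequences were searched for the elements of these programs in the 300 bases from 250 before to 50 after the start of each gene, on both strands, in RefSeq sequence of GRCh38.p14. Of 21325 genes tested, 13388 had a promoter entry. The CHR, searched as TTTGAA, was in 64.0% of 50 mitotic promoters and in 62.1% of the 29 promoters of mitotic genes lower than in both other lines, against 10.3% of all tested promoters and 15.4% of all 27305 promoters of the table. It was in 5 of 18 promoters of the HCC38-only falls, those of FUT8, PPIL4, MAD2L1, FAM72A and ARHGAP19. E2F sites, searched as TTTCCCGC, TTTCGCGC, TTTGCCGC and TTTGGCGC, were in 43.6% of the E2F list, 4.83% of tested promoters and 3.33% of the table, but in 3.27% of all called falls and in none of the 18. The CHR was chosen after the mitotic genes were seen. A match is a run of letters and not evidence of binding, and no match says only that these letters are not in the window. The promoters below, written 5′ to 3′ on the strand of the gene, show where the letters lie, in capitals, in a CHR gene that fell in HCC38 only, in a CHR gene lower than in both other lines, and in a replication gene that fell in every line.
MAD2L1 (chr4:120066799-120067098, minus strand): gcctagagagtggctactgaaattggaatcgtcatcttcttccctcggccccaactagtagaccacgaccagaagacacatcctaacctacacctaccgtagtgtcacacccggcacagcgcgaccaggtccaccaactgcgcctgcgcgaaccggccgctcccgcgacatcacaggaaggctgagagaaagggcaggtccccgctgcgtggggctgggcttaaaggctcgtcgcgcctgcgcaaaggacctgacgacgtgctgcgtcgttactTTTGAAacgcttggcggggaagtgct
CCNB2 (chr15:59104896-59105195, plus strand): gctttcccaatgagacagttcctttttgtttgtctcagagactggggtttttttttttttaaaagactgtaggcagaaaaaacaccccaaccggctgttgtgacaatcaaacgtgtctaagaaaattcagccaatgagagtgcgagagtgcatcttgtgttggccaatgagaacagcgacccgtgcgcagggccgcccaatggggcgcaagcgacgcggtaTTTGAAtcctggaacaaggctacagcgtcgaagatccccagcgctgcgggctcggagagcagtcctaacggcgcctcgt
POLA1 (chrX:24693668-24693967, plus strand): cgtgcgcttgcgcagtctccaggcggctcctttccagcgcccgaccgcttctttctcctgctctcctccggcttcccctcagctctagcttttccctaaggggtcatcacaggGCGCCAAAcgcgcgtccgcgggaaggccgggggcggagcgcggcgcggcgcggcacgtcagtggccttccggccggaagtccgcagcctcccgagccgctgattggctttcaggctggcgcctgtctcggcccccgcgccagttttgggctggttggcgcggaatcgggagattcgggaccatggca

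**Figure D4:**
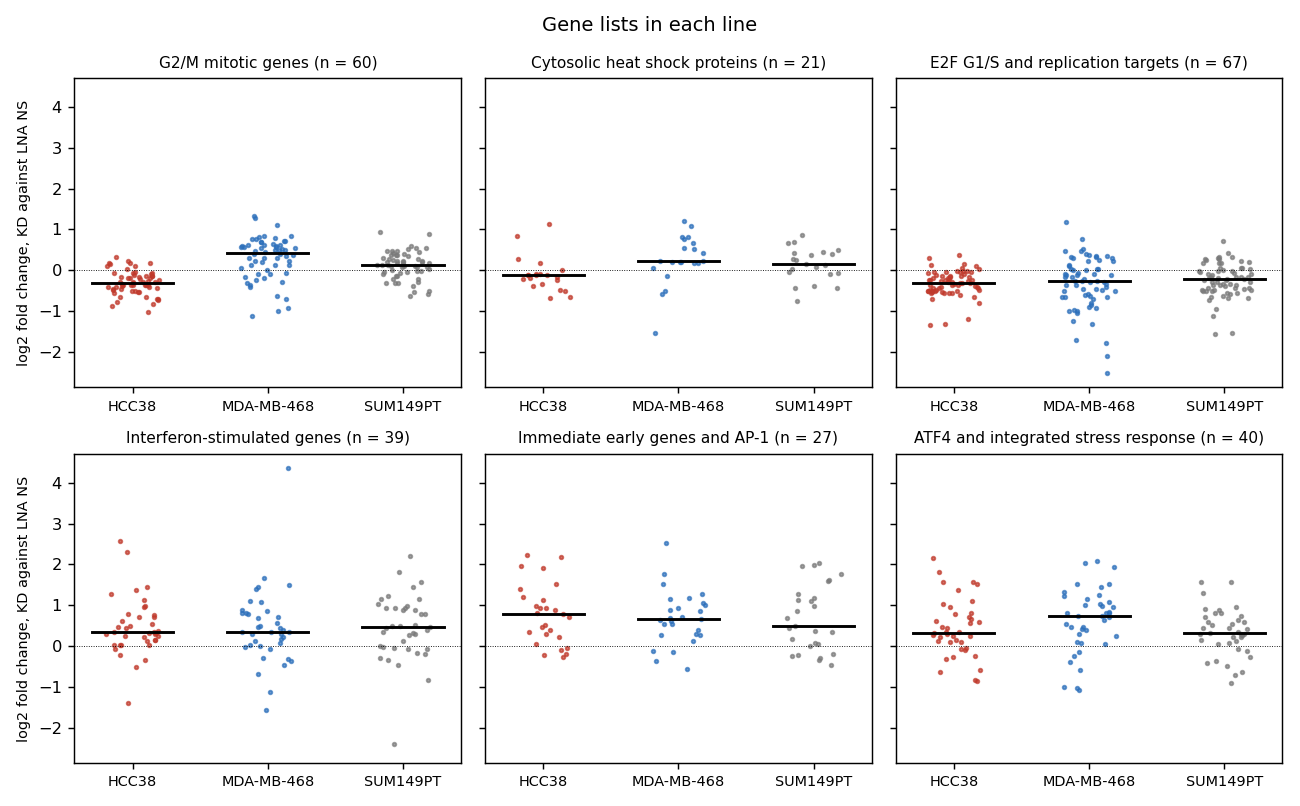
Log2 fold change with KD against LNA NS of every tested member of 6 gene lists in HCC38, MDA-MB-468 and SUM149PT. Points are genes and the bar is the median, which for the mitotic genes is −0.31 in HCC38, 0.43 in MDA-MB-468 and 0.14 in SUM149PT.

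Heat shock genes also stood lower in HCC38 than elsewhere. The list of 21 was meant for cytosolic proteins but also holds the mitochondrial chaperonin genes HSPD1 and HSPE1. In HCC38 7 fell (33.3%, against 18.4% of all genes), HSPD1 and HSPE1 among them, and 2 rose (9.52%, against 15.5%). The median log2 fold change was −0.13, against 0.22 in MDA-MB-468 and 0.15 in SUM149PT. Over the alternatives in processing the HCC38 median was −0.0026 at its highest. The response was lower than in both for 9 of the 21, against 5.01% of all genes. HSP90AA1, the inducible HSP90, had 1538 and 1473 CPM in the KD libraries, against 2566 and 2186 CPM in the LNA NS libraries. HSPA8, the constitutive HSP70, had 1346 and 1255 CPM in the KD libraries, against 1904 and 1770 CPM in the LNA NS libraries. HSPD1, the mitochondrial chaperonin, had 552 and 498 CPM in the KD libraries, against 816 and 657 CPM in the LNA NS libraries. KD libraries were the lower ones in each of these, and the families have processed pseudogenes that may share reads. HSPD1 fell by 0.49 on the log2 scale in HCC38 and rose in the other lines, by 0.43 in MDA-MB-468 and 0.38 in SUM149PT. HSPH1, an HSP70 exchange factor named after its values were seen, had 299 and 235 CPM in the KD libraries, against 369.6 and 330.1 CPM in the LNA NS libraries, and it rose by 0.78 in MDA-MB-468 and 0.69 in SUM149PT. Its fall in HCC38 was lost without KD replicate 2 or LNA NS replicate 1, while its difference from both lines passed the test (edgeR adjusted p = 0.00021 and 0.00146). HSPB8, a small heat shock protein that works in chaperone-assisted autophagy, went up instead, with 10.7 and 11.8 CPM in the KD libraries, against 5.31 and 4.95 CPM in the LNA NS libraries. Leaving out 1 library gave 3 to 8 falls on this list, with the fewest without LNA NS replicate 1.

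Of 28 genes of ER chaperones and the unfolded protein response, 12 fell (42.9%, against 18.4% of all genes) and 4 rose (14.3%, against 15.5%, and 2 without KD replicate 1) in HCC38, with a median of −0.23, against 0.22 in MDA-MB-468 and −0.05 in SUM149PT. Without LNA NS replicate 1 the median was −0.11. The response was lower than in both other lines for 3 of the 28 (against 5.01% of all genes), and for 1 to 5 in the fits without 1 library, 1 without MDA-MB-468 KD replicate 2 and 5 without SUM149PT KD replicate 2. HSPA5, the main HSP70 of the endoplasmic reticulum, had 796 and 721 CPM in the KD libraries, against 1111 and 1048 CPM in the LNA NS libraries. ATF6, a sensor that turns into a transcription factor under stress in that compartment, had 102 and 102 CPM in the KD libraries, against 180.4 and 183 CPM in the LNA NS libraries. DNAJC3, a co-chaperone there, had 45.1 and 41.7 CPM in the KD libraries, against 65.4 and 64.4 CPM in the LNA NS libraries. Both KD libraries were below both LNA NS libraries in these genes. The responses of ATF6 and DNAJC3 were lower than in both other lines (edgeR adjusted p from 0.00488 to 0.0457), in 5 of the 12 fits without 1 library for ATF6 and in all 12 for DNAJC3, whereas HSPA5 differed from MDA-MB-468 (edgeR adjusted p = 0.0085) and did not pass against SUM149PT (edgeR adjusted p = 0.407).

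Interferon-stimulated genes rose in HCC38 as in the other lines. Of 39 tested, 20 rose (51.3%, against 15.5% of all genes), 1 fell and 18 did not pass, with a median of 0.34, against 0.35 in MDA-MB-468 and 0.48 in SUM149PT. The HCC38 response was higher than in both other lines for 3 of the 39 (against 4% of all genes) and lower than in both for 4 (against 5.01%, and for 2 without KD replicate 2, MDA-MB-468 KD replicate 2 or MDA-MB-468 LNA NS replicate 1). RSAD2, an antiviral enzyme, had 78.6 and 73.3 CPM in the KD libraries, against 14.99 and 15.7 CPM in the LNA NS libraries. IFIT2, which binds viral RNA, had 211 and 208 CPM in the KD libraries, against 81.8 and 80.8 CPM in the LNA NS libraries. OASL, of the oligoadenylate synthetase family, had 447 and 493 CPM in the KD libraries, against 239 and 237 CPM in the LNA NS libraries. KD values exceeded LNA NS values in each, and none of the 3 passed the test of a difference from either other line (edgeR adjusted p from 0.118 to 0.976). The interferon-stimulated response element, searched as GAAA, any 2 bases and GAAA, and chosen after the genes were seen, was in 61.3% of 31 promoters of the list and in 11 of 15 promoters of its risen genes, against 2.81% of all tested promoters and 3.65% of the table. Among the HCC38-only rises with an entry it was in 1 of 14, that of ISG15, given here with 2 overlapping matches in capitals because this interferon-stimulated gene was among those called in HCC38 alone.
ISG15 (chr1:1013247-1013546, plus strand): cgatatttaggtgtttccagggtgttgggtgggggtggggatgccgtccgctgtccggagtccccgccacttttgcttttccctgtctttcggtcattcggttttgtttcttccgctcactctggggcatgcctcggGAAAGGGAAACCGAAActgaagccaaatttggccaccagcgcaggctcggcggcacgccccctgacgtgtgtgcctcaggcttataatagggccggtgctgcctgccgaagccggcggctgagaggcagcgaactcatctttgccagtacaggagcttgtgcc

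Stress-responsive genes rose in HCC38 as in the other lines. Of 27 immediate early genes, 18 rose (66.7%, against 15.5% of all genes) and 2 fell (7.41%, against 18.4%), with a median of 0.79, against 0.65 in MDA-MB-468 and 0.48 in SUM149PT. ATF3, a stress-induced transcription factor, had 48.9 and 51.5 CPM in the KD libraries, against 13.98 and 12.8 CPM in the LNA NS libraries. FOSB, a subunit of AP-1, had 15.9 and 17.5 CPM in the KD libraries, against 3.76 and 4.75 CPM in the LNA NS libraries. JUN, another subunit, had 103 and 101 CPM in the KD libraries, against 42.04 and 46.9 CPM in the LNA NS libraries. The KD libraries were all above the LNA NS libraries. NR4A2, a nuclear receptor induced early, had 11.4 and 9.21 CPM in the KD libraries, against 3.26 and 3.95 CPM in the LNA NS libraries, and DUSP1, a phosphatase that turns off MAP kinases, had 16.9996 and 17.04 CPM in the KD libraries, against 8.43 and 7.04 CPM in the LNA NS libraries. JUN and DUSP1 rose more than in SUM149PT, by 0.82 and 0.97 in log2 fold change (edgeR adjusted p = 0.00371 and 0.00426), and NR4A2 rose more than in MDA-MB-468, by 0.87 (edgeR adjusted p = 0.00902). The AP-1 site, TGANTCA, was in 9.85% of promoters of called rises and 2.96% of those of called falls, against 5.35% of tested promoters and 7.76% of the table. The cAMP response element, TGACGTCA, was in 2.60% and 1.40%, against 2.94% of tested promoters and 1.98% of the table.

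Of 40 genes of the integrated stress response, which ATF4 drives when translation is held back, 25 rose (62.5%, against 15.5% of all genes) and 6 fell (15%, against 18.4%), with a median of 0.33, against 0.72 in MDA-MB-468 and 0.31 in SUM149PT. CHAC1, a glutathione-degrading enzyme, had 9.46 and 9.83 CPM in the KD libraries, against 2.05 and 2.25 CPM in the LNA NS libraries. NUPR1, a small stress-induced chromatin protein, had 174 and 212 CPM in the KD libraries, against 54.4 and 55.2 CPM in the LNA NS libraries. Both rose without overlap, and NUPR1 rose more than in the other lines, by 0.81 over MDA-MB-468 (edgeR adjusted p = 0.00429) and by 1.02 over SUM149PT (edgeR adjusted p = 0.00536). The element of that program, TGATGNAAT, was in 0.929% of promoters of called rises and 0.312% of those of called falls, against 0.568% of tested promoters and 1.02% of the table. Of 40 p53 targets 12 rose (30.0%, against 15.5% of all genes) and 3 fell (7.5%, against 18.4%), with a median of 0.17, against 0.53 in MDA-MB-468 and 0.29 in SUM149PT. PMAIP1, a BH3-only protein, had 301 and 291 CPM in the KD libraries, against 141 and 122 CPM in the LNA NS libraries. BTG2, an antiproliferative gene, had 15.5 and 15.7 CPM in the KD libraries, against 6.16 and 6.45 CPM in the LNA NS libraries. Both rose with KD, whereas CDKN1A, the cell cycle inhibitor p21, had 38.5 and 44.1 CPM in the KD libraries, against 37.8 and 38.9 CPM in the LNA NS libraries, with overlapping groups, and did not pass (edgeR adjusted p = 0.467). GADD45A, a stress sensor, had 42.2 and 46.1 CPM in the KD libraries, against 35.5 and 32.1 CPM in the LNA NS libraries, and its rise of 0.38 was lost without KD replicate 2 or LNA NS replicate 2.

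Motile cilium genes, a list added after genes of this kind were seen among the rises, gave 13 rises (28.3%, against 15.5% of all genes) and 3 falls (1 without KD replicate 2 or without LNA NS replicate 1) among 46 tested, 11 of the rises over 2-fold, with a median of 0.23 (0.11 without KD replicate 1). In MDA-MB-468 14 of the 46 rose (against 24.9% of all genes there), with a median of 0.26. In SUM149PT 11 of the 46 rose (against 20% of all genes there), with a median of 0.39. Counting its untested genes as such, the list held 25 genes under 1 CPM in both HCC38 groups. FOXJ1, the master regulator of motile cilia, had 1.098 and 1.4002 CPM in the KD libraries, against 0.175 and 0.143 CPM in the LNA NS libraries. SPEF1, of the central apparatus of the axoneme, had 2.84 and 3.07 CPM in the KD libraries, against 0.328 and 0.0614 CPM in the LNA NS libraries. RSPH1, a radial spoke protein, had 2.104 and 2.37 CPM in the KD libraries, against 0.743 and 0.553 CPM in the LNA NS libraries. The KD libraries were several-fold above the LNA NS libraries, at low levels. DNAAF1, an assembly factor for axonemal dynein, had 1.26 and 1.35 CPM in the KD libraries, against 0.393 and 0.205 CPM in the LNA NS libraries, and ZMYND10, another, had 1.299 and 1.29 CPM in the KD libraries, against 0.306 and 0.348 CPM in the LNA NS libraries. GAS8, of the nexin-dynein regulatory complex, was the abundant member, with 48.5 and 51.2 CPM in the KD libraries, against 29.3 and 32.2 CPM in the LNA NS libraries. None of these groups overlapped. The responses of SPEF1, CCDC40 and GAS8 were higher than in both other lines (edgeR adjusted p from 0.00057 to 0.0264), whereas FOXJ1 differed from MDA-MB-468 (edgeR adjusted p = 0.0211) and could not be compared with SUM149PT, where no library had a count. A response higher than in both other lines was found for 4 of 46 (2 without LNA NS replicate 2), against 4% of all genes. FOXJ1, RSPH1 and DNAAF1 were named after their values were seen.

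Some genes moved in opposite directions between lines at any fold. With 105 genes that fell in HCC38 and rose in both other lines and 62 that rose in HCC38 and fell in both, these were a small share of the 3927 falls and 3316 rises. Those named here, apart from HES4, were chosen after their values were seen. NEU1, the lysosomal sialidase, had 96.1 and 94.5 CPM in the KD libraries, against 63.7 and 61.1 CPM in the LNA NS libraries. ELMO3, an engulfment and motility protein, had 27.9 and 29.5 CPM in the KD libraries, against 17.2 and 16.4 CPM in the LNA NS libraries. PODXL, a sialomucin of the apical membrane, had 24.2 and 20.3 CPM in the KD libraries, against 11.9 and 14.9 CPM in the LNA NS libraries. They rose in HCC38 without overlap, by 0.61, 0.78 and 0.73 on the log2 scale, and had −1.77, −0.43 and −0.63 in MDA-MB-468 and −0.84, −0.43 and −0.54 in SUM149PT. TRIM5, an antiviral restriction factor whose annotated span overlaps other genes, had 17.9 and 18.3 CPM in the KD libraries, against 11.8 and 13.6 CPM in the LNA NS libraries, a rise lost without LNA NS replicate 1. HES4, a target of NOTCH signaling, had 57.9 and 60.2 CPM in the KD libraries, against 44.9 and 41.6 CPM in the LNA NS libraries. In the other direction, LAMA2, a laminin chain, had 29.1 and 21.8 CPM in the KD libraries, against 36.6 and 46.7 CPM in the LNA NS libraries, and PLAU, the urokinase protease, had 215 and 206 CPM in the KD libraries, against 298 and 285 CPM in the LNA NS libraries. Both fell in HCC38, by 0.71 and 0.47 on the log2 scale, and rose in MDA-MB-468 (1.31 and 0.82) and SUM149PT (0.72 and 0.27).

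With the 2-fold threshold on both sides, 21 HCC38 calls were opposite in MDA-MB-468 and 16 in SUM149PT. These were 36 genes in all, of which 15 reached 1 CPM. IGF2BP3, an RNA-binding protein of fetal and tumor tissue named after its values were seen, had 8.47 and 7.14 CPM in the KD libraries, against 14.2 and 17.3 CPM in the LNA NS libraries, lower in both KD libraries, with a log2 fold change of −1.01 in HCC38 and 1.35 in SUM149PT. Genes that HCC38 expressed at 1 CPM or more, but another line did not, held a further 241 called rises and 174 called falls, 169 and 117 of them protein-coding. HSPA12A, an HSP70-like protein, was such a fall, with 1.35 and 1.05 CPM in the KD libraries, against 9.83 and 11.6 CPM in the LNA NS libraries.

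Signaling lists differed in how far they moved, set against the 15.5% that rose and 18.4% that fell of all genes. NOTCH pathway genes rose in 10 of 22 (45.5%) and fell in 2 (9.09%), with a median of 0.28, against 0.22 in MDA-MB-468 and 0.18 in SUM149PT. DLL4, a NOTCH ligand, had 2.36 and 3.53 CPM in the KD libraries, against 0.459 and 0.676 CPM in the LNA NS libraries. Of 47 NF-κB and inflammatory genes 17 rose (36.2%) and 4 fell (8.51%), with a median of 0.17 (0.06 without KD replicate 2), against 0.47 in MDA-MB-468 and 0.30 in SUM149PT, where 25 rose in each. The HCC38 response was lower than in both for 6 of the 47 (3 without LNA NS replicate 1). HBEGF, a ligand of the EGF receptor, had 37.7 and 36.8 CPM in the KD libraries, against 12.9 and 12.2 CPM in the LNA NS libraries, and TGFA, another, had 79.4 and 75.3 CPM in the KD libraries, against 128 and 129.9 CPM in the LNA NS libraries. HBEGF was higher and TGFA lower with KD, without overlap, and the TGFA response was below both other lines, by 0.44 against MDA-MB-468 (edgeR adjusted p = 0.0161) and 0.80 against SUM149PT (edgeR adjusted p = 0.00128). YAP and TEAD targets fell in 11 of 22 (50.0%, but 5 of 22, near the share of all genes, without KD replicate 2 and 7 without LNA NS replicate 2) and rose in 5 (22.7%, and 3 without KD replicate 1 or without either LNA NS library), with a median of −0.24, against 0.35 in MDA-MB-468 and 0.01 in SUM149PT, and TEAD4, a DNA-binding partner of YAP, had 18.2 and 18.2 CPM in the KD libraries, against 55.6 and 57.8 CPM in the LNA NS libraries. TGF-beta and SMAD targets fell in 15 of 30 (50.0%) and rose in 8 (26.7%, and 4 without KD replicate 1), with a median of −0.16, against −0.09 in MDA-MB-468 (13 falls) and −0.12 in SUM149PT (12 falls), and ID1, an inhibitor of basic helix-loop-helix factors, had 108 and 126 CPM in the KD libraries, against 345 and 329.9 CPM in the LNA NS libraries. Of matrix genes, TNC, the glycoprotein tenascin C, had 301 and 245 CPM in the KD libraries, against 581 and 787 CPM in the LNA NS libraries, and all 3 of these genes were lower with KD. Basal markers split, with 7 rises and 6 falls (3 without LNA NS replicate 2) among 18. The HCC38 response was higher than in both other lines for 5 of them (3 without KD replicate 2 or without MDA-MB-468 KD replicate 1), against 4% of all genes.

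Some lists had smaller shares of changed genes than the 15.5% that rose and 18.4% that fell of all genes. Cytosolic ribosomal protein genes rose in 4 of 78 (5.13%) and fell in 5 (6.41%), with a median of 0.04. The sign of that median turned with 1 library, with 10 rises, 0 falls and a median of 0.14 without LNA NS replicate 1 (6, 0 and 0.12 without KD replicate 1) and 2 rises, 10 falls and a median of −0.07 without LNA NS replicate 2 (2, 5 and −0.07 without KD replicate 2). Of the 13 mitochondrially encoded mRNAs none passed the test in HCC38, with a median of −0.10, whereas 9 rose in MDA-MB-468 (median 0.31) and 5 in SUM149PT (median 0.23). The difference itself, lower in HCC38 than in both, passed for 4 of the 13, but for 1 without LNA NS replicate 2, for 2 without MDA-MB-468 KD replicate 1, and for 0 without MDA-MB-468 LNA NS replicate 2 or SUM149PT KD replicate 1. Replication-dependent histone genes, also a list added after genes were seen, fell in 6 of 34 (17.6%) and rose in 1, with a median of −0.09, against −0.76 in MDA-MB-468 and −0.72 in SUM149PT. Their messages mostly lack poly-A tails. NEAT1, the lncRNA that scaffolds nuclear paraspeckles, had 445 and 472 CPM in the KD libraries, against 867 and 974 CPM in the LNA NS libraries. It fell by 1.004 on the log2 scale, without overlap, and passed no test of a difference from MDA-MB-468 (edgeR adjusted p = 0.83) or SUM149PT (edgeR adjusted p = 0.483).

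Gene length separated the directions. Genes were put into 4 bins of like size by annotated span. In bin 1, the shortest, 7.87% were called higher and 1.99% lower, and in bin 4, the longest, 2.24% were called higher and 11.3% lower. Bin 2 had 5.76% higher and 1.24% lower, and bin 3 had 3.68% higher and 3.06% lower. The median log2 fold change from bin 1 to bin 4 was 0.15, 0.11, −0.01 and −0.24. The span at the median was 116398 bp for called falls, against 9163 bp for called rises and 21770 bp for all genes with a span. Of 1296 genes over 200 kb, 23.8% were called lower and 1.31% higher, with a median of −0.54 in HCC38, −0.85 in MDA-MB-468 and −0.32 in SUM149PT. The E2F list had a span of 31272 bp at the median, within bin 3 and below that of the called falls, and the part of length in its falls was not tested.

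**Figure D5:**
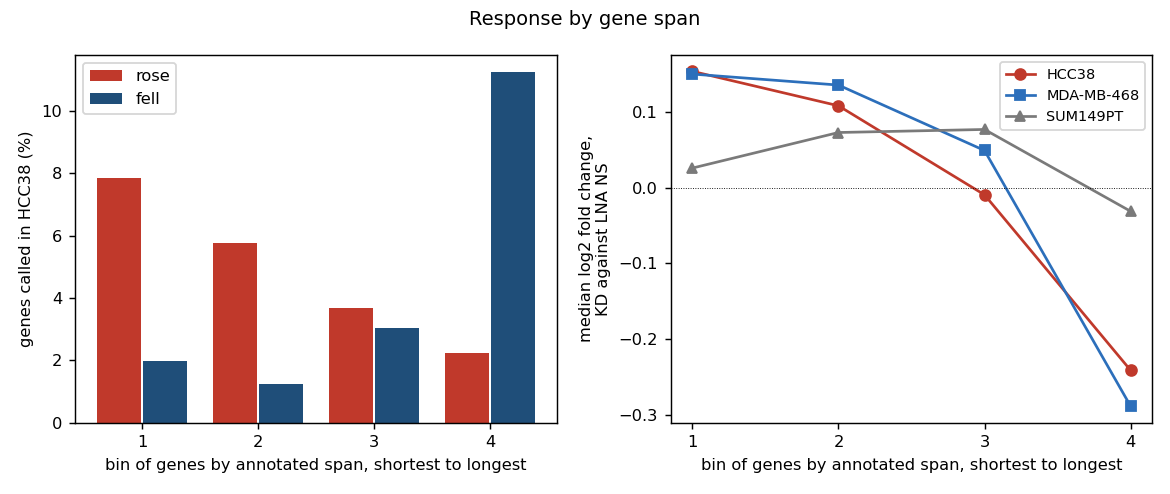
Left, the percentage of genes called higher (rose) and lower (fell) in HCC38 in each of 4 bins of genes by annotated span. Right, the median log2 fold change of the same bins in the 3 lines, which in HCC38 is 0.15 in the shortest and −0.24 in the longest bin.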

How the data were processed

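Poly-A selected, strand-specific RNA-seq libraries were used, 4 of HCC38 and 8 of the other lines. The authors deposited whole-number read counts per Ensembl gene for 63677 genes, without normalization, aligned to GRCh37 (hg19) and counted with HTSeq. The study's methods name STAR as the aligner and the submitters' processing notes name TopHat2 2.0.13, so the aligner of these counts is not settled here. The annotation release and the strand setting of the counting are not given in the sources used here, so overlapping and antisense genes are uncertain. The 5 summary lines per library, 40.8% to 53.7% of all counts, entered neither library sizes nor tests. The members, gene lists and tests were chosen with earlier results of these data known. Groups follow cell line and condition in the labels.

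edgeR 4.0.16 (limma 3.58.1, R 4.3.3) kept 21325 genes by filterByExpr (minimum count 10, minimum total 15), used TMM, and fitted 1 quasi-likelihood model of 6 group means (common dispersion 0.0109, 6 residual degrees of freedom). Contrasts were KD against LNA NS in each line and the HCC38 response minus that of each other line. Calls need an adjusted p under 0.1 and over 2-fold. Gene names, positions and spans are from GENCODE 44 lifted to GRCh37, which matched 55665 genes, and the genes left without a match held 0.636% of the counts. Replicate libraries were not copies of each other (within groups, chi-square over its degrees of freedom was 16.3 to 29.5). Tables and figures used Python 3.11.15, numpy 2.4.6, pandas 2.3.3 and matplotlib 3.10.9.

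The genes named are the lncRNA, its neighbors, the E2F family and a few genes of the study, the 15 largest called rises and falls with at least 1 CPM and no overlap, the 8 most abundant of each, the 20 largest HCC38-only rises and falls, the 5 largest in each direction expressed in HCC38 and below 1 CPM in another line, the 5 largest in each direction of opposite calls, and up to 4 members per list with the smallest adjusted p. From these the text takes those that show the pattern, and a gene named by the rule is not reported here. Of the HCC38-only rises, protein-coding genes beyond the 20 largest were named after their values were seen. The 38 lists held 1166 entries, 8 of them unmatched, and 2 lists were added after the data were seen.

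On simulated counts of 20725 genes drawn from the means of each line, the test passed 61.7% of 1.5-fold, 98.6% of 2-fold and 100% of 4-fold changes. It called 49.3% of the 2-fold changes, whose estimates fall on either side of the threshold. Of 20525 unchanged genes it called 2. The simulation gave all genes 1 dispersion and no shift between libraries, such as that seen in structural RNA. These rates therefore do not carry over to the data here. Alternatives were other normalizations, DESeq2 1.42.0, a robust fit, HCC38 libraries alone, other filters and thresholds, a replicate block and each library left out.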

Additional observations from a re-analysis of the deposited data

Results flagged for a closer look

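These values stood out because the HCC38 response differed from that of each other line. Such genes were looked for by the test of the difference, and 41 HCC38-only rises and 20 HCC38-only falls met all limits. For each gene below the value is the smaller of its 2 differences in log2 fold change, HCC38 minus the other line, both past the test.

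Among the coding rises it was 1.15 for ISG15, 0.80 for IRF7, 1.88 for SLC1A1, 2.35 for SERPINF2, 1.57 for CCDC40, 0.88 for DYRK1B, 1.08 for HRK, 0.71 for BAG1, 1.24 for KRT17, 0.82 for HES6 and 0.95 for UBXN11. Among the falls it was −0.95 for ARHGAP19, −0.77 for RMI1, −0.62 for STAG2, −0.81 for MAD2L1, −0.52 for NUP160, −0.69 for DDIAS, −0.75 for FUT8, −0.45 for CAB39, −0.69 for CRISPLD2, −0.60 for ACAP2 and −1.69 for FAM72A. Among structural RNAs it was 3.44 for RN7SL2, 4.22 for RN7SL3, 3.67 for RNA5S9, 3.41 for RNA5-8SP2, 3.45 for SNORD3A and 3.54 for SCARNA7. Mitotic genes had −0.92 for BUB1, −0.81 for CDK1, −0.82 for CCNB1, −0.68 for CCNB2 and −0.63 for NDC80, and E2F3 had −0.43. Chaperone genes had −0.87 for HSPD1, −0.51 for HSP90AA1, −0.62 for HSPA8, −1.08 for HSPH1, −0.44 for ATF6 and −0.49 for DNAJC3. Genes that moved in opposite directions had 1.46 for NEU1, 1.38 for TRIM5, 1.20 for ELMO3, 1.27 for PODXL, 0.88 for HES4, −1.43 for LAMA2 and −0.74 for PLAU. The value was 2.09 for SPEF1 and 0.63 for GAS8 among cilium genes, and 1.25 for FAM83E, 0.93 for RYR2, −1.78 for PYGM, 0.81 for NUPR1, −0.44 for TGFA and 0.67 for EN1 among other genes of the text. Of these 55 genes, 35 passed both tests in each of the 12 fits without 1 library. The others lost at least 1 of the tests in some fits, 11 of the 12 for FAM83E, 10 for E2F3, 9 for NUP160 and 7 for ATF6, 6 each for NDC80 and RN7SL2, 5 each for EN1, IRF7, RNA5-8SP2 and SCARNA7, 4 each for CAB39, RNA5S9, RYR2 and SNORD3A, 3 each for ACAP2, DDIAS, HES6 and RMI1, 2 for STAG2 and 1 for SPEF1.

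Data outside the gene counts also differed in HCC38. Reads in no gene took 8.34% and 13.0% of counts in KD replicates 1 and 2, and unaligned reads 3.00% and 6.11%, all above both LNA NS libraries. Their part in the results was not tested.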

How the results depend on the processing

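The counts of all HCC38 calls were steadier than those of genes moving in HCC38 only. HCC38-only falls numbered 13 with RLE size factors, 10 with library size alone or with at least 10 counts in every HCC38 library, and 5 with upper quartile scaling. HCC38-only rises numbered 21 in the robust fit and 17 at an adjusted p under 0.05. With protein-coding genes alone, an alternative added after the data were seen, there were 651 rises and 19 HCC38-only rises. Without 1 library the calls ran from 1522 to 2042, rises from 704 (without LNA NS replicate 1) to 1095, falls from 802 to 1050, and the lncRNA from −3.32 to −2.88 on the log2 scale. HCC38-only rises ran from 17 (without SUM149PT KD replicate 1) to 54, with 21 without KD replicate 2, 22 without LNA NS replicate 1 and 23 without SUM149PT LNA NS replicate 2. HCC38-only falls ran from 10 (without SUM149PT KD replicate 1) to 47 (without LNA NS replicate 2), with 39 without KD replicate 1, 13 without KD replicate 2 and 12 without MDA-MB-468 KD replicate 2. The cause of these shifts was not tested.

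DESeq2 gave 1646 calls, and library size alone 1203 rises and 826 falls. The replicate block gave 1849 calls, 968 rises, 881 falls, 52 HCC38-only rises and 20 HCC38-only falls. Same-numbered HCC38 libraries had deviations correlated at −0.30, with −0.04 in MDA-MB-468 and 0.23 in SUM149PT. The sign was not the same in every line, so this check does not settle whether the numbers pair the libraries. Pairing them crosswise in HCC38, added after that check, gave 2028 calls. Of 253 named genes that passed, 203 passed under every alternative and 206 in every fit without 1 library, and none changed direction.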
